A study of Mus musculus with 2 samples.

Results

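The genes described here are the bone morphogenetic protein (BMP) ligands *Bmp2*, *Bmp4*, *Bmp5*, *Bmp6* and *Bmp7*, the related ligand *Gdf10*, and the antagonists *Grem1*, *Fst*, *Chrdl1* and *Bmper*, in mouse mammary stroma. They were chosen by symbol, and each symbol matched 1 gene, giving 10 members among the 33696 genes listed for both libraries. The measurements are unique molecular identifier (UMI) counts of single cells, where each UMI stands for 1 captured transcript. The cells came from wild-type C57BL/6 females, freshly sorted from the mammary gland as lineage-negative and CD24-negative, with 2 females per condition according to the labels. The pubertal library came from mice of 4 weeks and the other from adult virgin mice of 9 weeks. Neither group carries a transgene or received a treatment, and both libraries are labelled replicate 2. Any females pooled in a library cannot be separated. A level is the summed UMIs of a gene per 1000000 summed UMIs of the same cells (CPM). All intervals are 95% intervals that cover counting error only.

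BMPs are secreted ligands of the TGFβ superfamily that bind paired type I and type II serine/threonine kinase receptors and signal through SMAD1, SMAD5 and SMAD9. Antagonists in the extracellular space bind the ligands and keep them from their receptors. In the mammary gland, BMP signalling takes part in epithelial morphogenesis, and in adipose tissue it takes part in the commitment and differentiation of fat cell precursors.

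The positions of the members are given on GRCm38 from the GENCODE vM21 annotation. *Bmp2* is at chr2:133552159-133562885, *Bmp7* at chr2:172868012-172940321 and *Grem1* at chr2:113746164-113758646. *Bmp5* at chr9:75775364-75900310 and *Bmper* at chr9:23223076-23485200 share chromosome 9, *Bmp6* is at chr13:38345107-38500302 and *Fst* at chr13:114452290-114458951. *Gdf10* is at chr14:33923587-33937983, *Bmp4* at chr14:46383520-46390669 and *Chrdl1* at chrX:143285674-143394262. Annotated genes overlap *Bmp4*, *Bmp5*, *Bmp6* (among them *Txndc5* on the other strand) and *Fst*, and *Gm47723* overlaps *Bmp5* on its own strand. Whether the counting used strand is not given in the sources used here.

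The promoter sequences of RefSeq (GRCm38.p6) held 6 of the 10 members, and *Bmp2*, *Bmp7*, *Fst* and *Chrdl1* were not among them. The 100 bases before the annotated start are printed for *Bmp4* and *Bmp5*, which were both higher in Thbs4+ cells, for *Gdf10* and *Bmper*, which lead in Fmo2+ and Fabp4+ cells, and for *Bmp6*, which leads in Pi16+ Dpp4+ cells. Each runs 5′ to 3′ on the strand of its gene, and capitals mark a GC box (GGGCGG, or CCGCCC on the other strand).
Bmp4 (chr14:46390670-46390769, minus strand): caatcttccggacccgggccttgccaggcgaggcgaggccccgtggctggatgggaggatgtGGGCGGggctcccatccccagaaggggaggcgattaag
Bmp5 (chr9:75775265-75775364, plus strand): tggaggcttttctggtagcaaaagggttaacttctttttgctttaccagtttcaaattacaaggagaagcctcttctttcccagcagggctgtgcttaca
Bmp6 (chr13:38345616-38345715, plus strand): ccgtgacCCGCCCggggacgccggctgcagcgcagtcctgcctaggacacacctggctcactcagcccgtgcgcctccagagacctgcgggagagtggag
Gdf10 (chr14:33923487-33923586, plus strand): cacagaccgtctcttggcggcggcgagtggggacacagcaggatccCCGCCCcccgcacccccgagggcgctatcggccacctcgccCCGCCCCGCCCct
Bmper (chr9:23222976-23223075, plus strand): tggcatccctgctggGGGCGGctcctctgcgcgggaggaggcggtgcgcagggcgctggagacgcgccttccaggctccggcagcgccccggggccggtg
In the 250 bases before the start, a GC box on either strand was found for 5 of the 6 members and for 32.7% of all 32851 promoters. *Bmp5* was the member without one. Its 250 bases held 4 CG dinucleotides, against 11 for *Bmp4*, 22 for *Bmp6*, 24 for *Bmper* and 35 for *Gdf10*, with a median of 6 over all promoters. The BMP-type SMAD element GGCGCC was found for *Grem1* alone and for 9.59% of all promoters, and TATAAA for no member and for 12.4% of all promoters. The RefSeq start of *Bmp6* lies inside the GENCODE gene. These matches describe the letters of the window and were tied to no measurement.

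After removal of cells with under 500 genes or over 10% mitochondrial UMIs, 21534 pubertal and 22972 adult cells were kept. At least 1 *Pdgfra* UMI, the fibroblast criterion, was found in 18878 and 20999 of them, with median depths of 12187 and 11265 UMIs per cell. The libraries shared 145 barcodes. Among the *Pdgfra*+ cells, 5 marker subsets were followed. Cells with *Pi16* and *Dpp4* made up 74.1% in puberty and 42.2% in the adult, cells with *Fmo2* 27.3% and 32.5%, cells with *Thbs4* 2.77% and 10.5%, cells with 2 or more *Fabp4* UMIs 9.42% and 12.2%, and cells with *Crabp1* 1.53% and 12.7%. The subsets overlap, with 20.6% and 23.4% of *Pdgfra*+ cells in 2 or more of them. The sixth group was 783 and 457 *Pdgfra*-negative cells with *Myh11* or *Rgs5*, marks of smooth muscle cells and pericytes. The other fixed markers of each group were higher in that group at both stages, except *Fndc1* in the Thbs4+ cells, at 682 against 909 CPM in puberty. *Gdf10* and *Bmp5* are themselves markers that the study used for the classes of *Fmo2* and *Thbs4* cells, so their levels in those cells are not independent evidence. With 1 library per stage no p-value was computed, and age cannot be told apart from library, mice or batch.

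In *Pdgfra*+ cells the ligand *Bmp5* and the modulator *Bmper* were higher in the adult, and the antagonists *Fst* and *Chrdl1* and the ligand *Bmp7* were lower. *Bmp2*, *Bmp4*, *Bmp6* and *Gdf10* differed by less than 1.5-fold, and *Grem1* was close to absent. Of the 9 members with at least 100 UMIs over both libraries, 2 were at least 1.5-fold higher in the adult, where 19.5% of all 16488 such genes were. Of the same members 3 were at least 1.5-fold lower, where 8.92% of all genes were. The median log2 ratio was -0.0039 over the members and 0.17 over all genes. With trimmed mean (TMM) scaling, which brings the median of all genes to 0.015, the same 2 members were past 1.5-fold upwards and the same 3 downwards. The share of members that were higher is thus near the background.

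**Figure D1:**
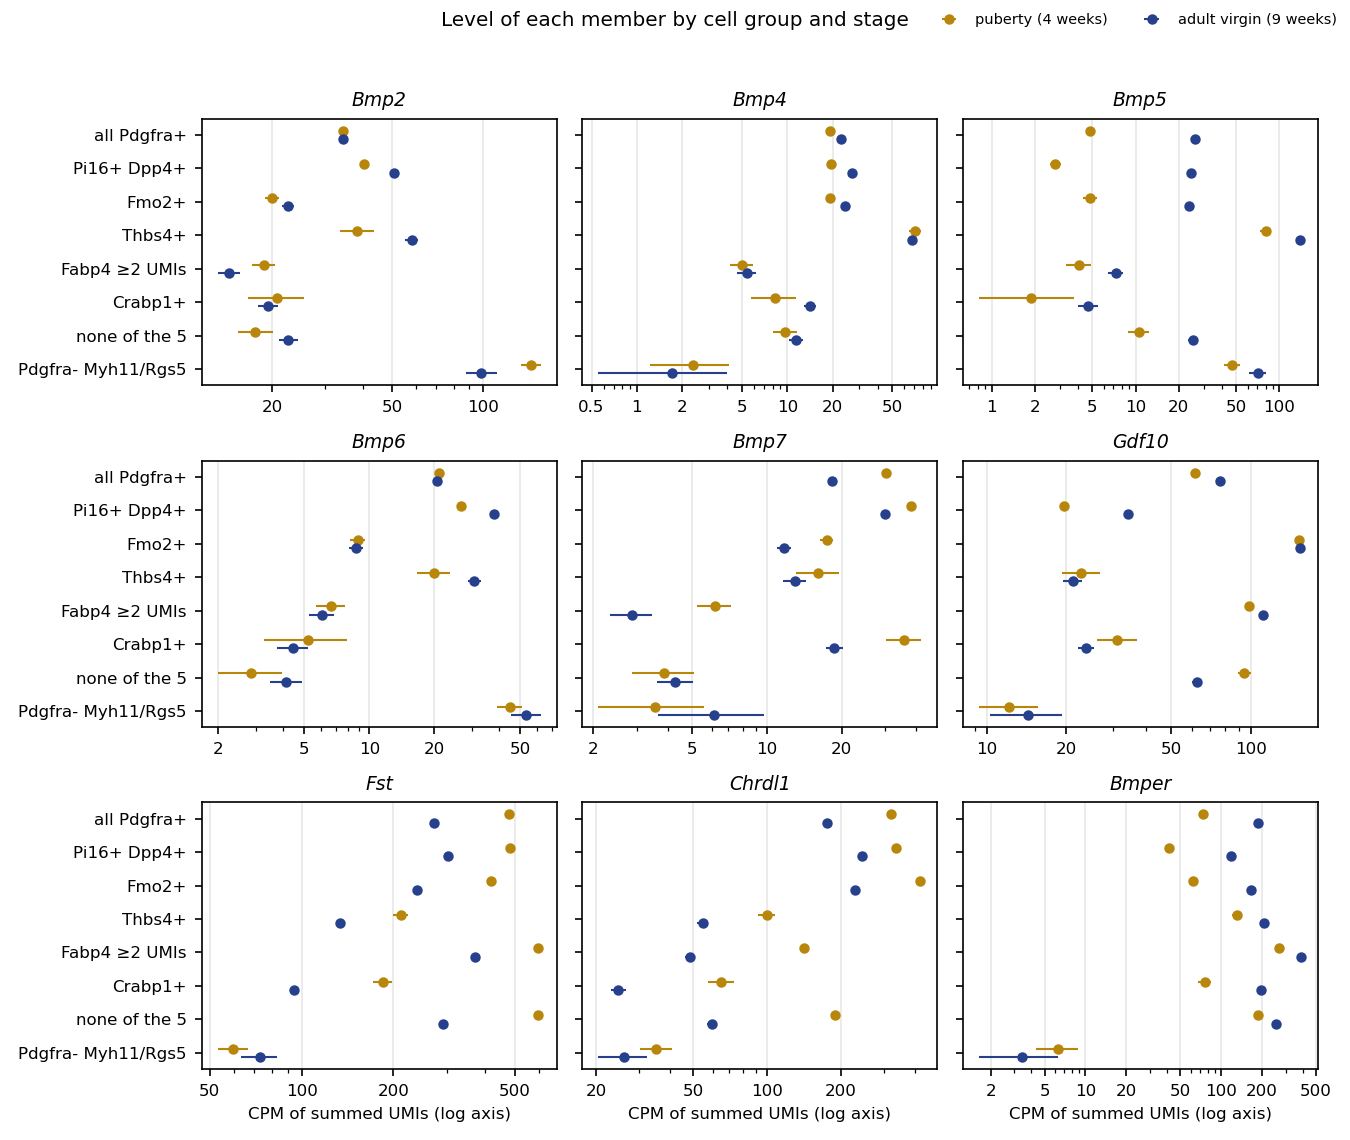
CPM of 9 members (*Grem1*, near 0, is left out) on log axes for all *Pdgfra*+ cells, the 5 marker subsets, the *Pdgfra*+ cells of none of the 5 and the *Pdgfra*-negative *Myh11* or *Rgs5* cells, with pubertal points in gold, adult points in blue and bars for 95% Poisson intervals. *Bmp5* and *Bmp4* peak among *Pdgfra*+ cells in the Thbs4+ cells, *Gdf10* in the Fmo2+ cells, *Bmp6* in the Pi16+ Dpp4+ cells and *Bmper* in the cells with 2 or more *Fabp4* UMIs.

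Among the ligands, *Bmp5* stood at 4.83 CPM (4.56 to 5.12) in puberty and 25.7 CPM (25.1 to 26.3) in the adult, a ratio of 5.32 (4.99 to 5.67). The ratio was 4.79 when the cells in 2 or more marker subsets were left out, and 1.85 when the subsets without those cells and the remaining cells were then given equal weight. The share of *Pdgfra*+ cells with a *Bmp5* UMI, after each cell was thinned to 3000 UMIs, was 1.04% and 4.89% (3.06% and 8.97% unthinned), and positive cells held a mean of 1.98 and 3.38 *Bmp5* UMIs. Thinning left out 336 pubertal and 426 adult cells that were too shallow. Among skeletal muscle cells, 0 of 33 in puberty and 0 of 85 in the adult held a *Bmp5* UMI, which by a limit of 3 counts allows a share of cells with a UMI of up to 9.09% and 3.53% at median depths of 5708 and 5372 UMIs. These cells were few and shallower than the *Pdgfra*+ cells, so the limits set no background for *Bmp5*.

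*Bmp7*, a ligand with known roles in kidney and brown fat development, stood at 30.1 CPM (29.4 to 30.8) and 18.2 CPM (17.7 to 18.7), a ratio of 0.605 (0.583 to 0.628). Its thinned share of cells was 8.19% and 4.91%, against 0.825% and 2.14% in the *Myh11* or *Rgs5* cells. *Bmp2*, a ligand known for bone and adipose commitment, was at 34.4 CPM in both libraries, with a ratio of 0.997 (0.967 to 1.03). *Bmp6*, a ligand best known for the control of hepcidin and iron, was at 21.0 and 20.6 CPM, with a ratio of 0.983 (0.946 to 1.02). For both genes the interval of the ratio includes 1.

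*Bmp4*, a ligand that acts in early mammary bud and fat precursor development, was at 19.3 CPM (18.7 to 19.9) in puberty and 22.6 CPM (22.0 to 23.2) in the adult, a ratio of 1.17 (1.13 to 1.22). *Gdf10*, also called BMP3b and a divergent member of the family, was at 61.5 CPM (60.5 to 62.5) and 76.8 CPM (75.7 to 77.9), a ratio of 1.25 (1.22 to 1.28). Both were higher in the adult beyond counting error and below 1.5-fold. The thinned share with *Gdf10* was 12.0% and 13.7% in *Pdgfra*+ cells, against 1.93% and 1.87% in the *Myh11* or *Rgs5* cells at median depths of 6334 and 6126 UMIs.

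Among the antagonists, *Fst* (follistatin, which binds activins and several BMPs) was at 478 CPM (476 to 481) in puberty and 271 CPM (269 to 273) in the adult, a ratio of 0.566 (0.560 to 0.571). *Chrdl1* (chordin-like 1, which binds BMPs as chordin does) was at 320 CPM (318 to 322) and 175 CPM (174 to 177), a ratio of 0.548 (0.542 to 0.555). Both were lower in the adult, far beyond counting error. For *Chrdl1* the thinned share of cells went from 50.4% to 24.2%, while positive unthinned cells held 5.21 and 5.47 UMIs. For *Fst* the thinned share went from 54.9% to 36.5%, and positive unthinned cells held 7.48 and 5.37 UMIs.

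*Bmper*, a secreted BMP-binding protein that can restrain or promote BMP activity, ran the other way from *Fst* and *Chrdl1*. It was at 73.8 CPM (72.7 to 74.9) in puberty and 186 CPM (185 to 188) in the adult, a ratio of 2.53 (2.48 to 2.57), 2.48 without the cells in 2 or more subsets and 1.67 with equal weight for the subsets as well. Its thinned share of cells was 14.1% and 30.7%. In the *Myh11* or *Rgs5* cells that share was 1.38% and 0.802%. *Grem1* (gremlin 1, an antagonist of BMP2, BMP4 and BMP7) gave 25 UMIs in all pubertal and 33 in all adult *Pdgfra*+ cells, or 0.106 and 0.133 CPM. In the adult 1 cell held 18 of those UMIs, and the gene was below the 100 UMIs needed to be counted among the members tested.

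Each subset can have its own ratio between the stages. *Bmp5* was higher in the adult in all 5 *Pdgfra*+ subsets, from 1.72-fold in the Thbs4+ cells to 8.85-fold (8.05 to 9.75) in the Pi16+ Dpp4+ cells. Of the Pi16+ Dpp4+ cells, 1.45% in puberty and 10.9% in the adult were also Thbs4+. In those with no other subset mark the *Bmp5* ratio was 6.16 (5.26 to 7.23). *Bmper* was higher in all 5, from 1.44-fold in the *Fabp4* cells to 2.87-fold in the Pi16+ Dpp4+ cells. *Fst* was lower in all 5, with ratios between 0.514 and 0.636. In cells of a single subset its ratio was 0.679 for *Pi16* and *Dpp4*, 0.735 for *Fmo2* and 0.845 for *Thbs4*, none past 1.5-fold. It was 0.569 for *Fabp4* and 0.480 for *Crabp1*. *Chrdl1* was also lower in all 5, from 0.727 in the Pi16+ Dpp4+ cells to 0.343 in the *Fabp4* cells. In cells of a single subset its ratio ran from 0.850 for *Pi16* and *Dpp4* to 0.203 for *Crabp1* (12 pubertal UMIs). For *Thbs4* alone its interval, 0.381 to 1.06, included 1. The interval of the *Bmp7* ratio lay below 1 in 4 subsets, and in the Thbs4+ cells it ran from 0.647 to 1.02. Of the 7119 pubertal and 4505 adult *Bmp7* UMIs in *Pdgfra*+ cells, 6924 and 3618 lay in the Pi16+ Dpp4+ cells. That subset made up 74.1% and 42.2% of *Pdgfra*+ cells. The *Bmp7* ratio in it was 0.786 (0.755 to 0.818), and 0.864 (0.826 to 0.904) in its cells with no other subset mark. Neither was past 1.5-fold. The 5 subsets share cells, so they are not separate samples of the same change.

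The flat totals of other ligands held different subset ratios. *Bmp2* was at 40.4 and 50.5 CPM in the Pi16+ Dpp4+ cells, a ratio of 1.25 (1.21 to 1.29), and *Bmp6* at 26.6 and 37.9 CPM, a ratio of 1.42 (1.37 to 1.48). Those cells, where both genes were highest among the *Pdgfra*+ subsets but for *Bmp2* in adult Thbs4+ cells, made up a smaller part of the adult library. *Gdf10* was at 152 and 153 CPM in the Fmo2+ cells, a ratio of 1.01 (0.983 to 1.04), and at 19.6 and 34.4 CPM in the Pi16+ Dpp4+ cells, a ratio of 1.75 (1.68 to 1.84). When the 5 subsets, without the cells they share, and the remaining cells were given equal weight, the ratio of *Bmp6* was 1.61, that of *Gdf10* 0.795 and that of *Bmp7* 0.721. With the shared cells left out and no change of weight, *Bmp6* was at 0.934 and *Bmp7* at 0.600, on the same side of 1.5-fold as with all cells, and *Gdf10* stayed above 1.

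Cells in a single subset gave some other ratios. *Gdf10* was at 395 and 278 CPM in cells with *Fmo2* and no other subset mark, a ratio of 0.704 (0.683 to 0.726), where all Fmo2+ cells gave 1.01. *Bmp7* was at 0.837 CPM (16 UMIs) and 5.06 CPM (158 UMIs) in the same cells, a ratio of 6.04 (3.61 to 10.8), against its direction in all Fmo2+ cells (0.672). In cells with *Thbs4* alone *Bmp5* was at 124 and 210 CPM, a ratio of 1.70 (1.49 to 1.94), and these cells held 23.3% and 23.1% of its UMIs with 0.909% and 2.83% of all UMIs of *Pdgfra*+ cells.

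**Figure D2:**
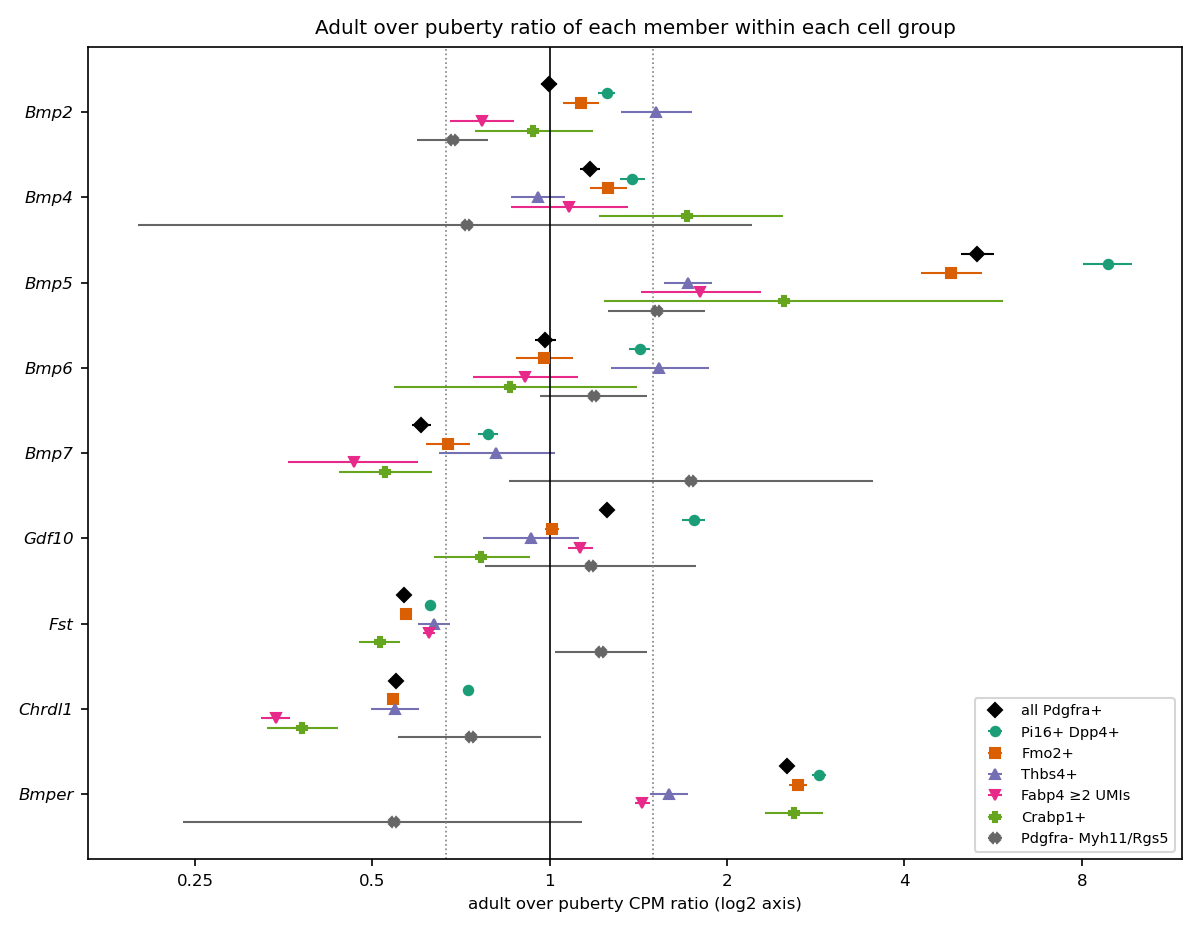
Adult over puberty CPM ratio of 9 members (log2 axis) in all *Pdgfra*+ cells, in each of the 5 marker subsets and in the *Pdgfra*-negative *Myh11* or *Rgs5* cells, with bars for 95% intervals of counting error and dotted lines at 1.5-fold in each direction. All *Pdgfra*+ subsets lie above 1 for *Bmp5* and *Bmper* and below 1 for *Fst* and *Chrdl1*, while *Bmp2* and *Gdf10* have subsets on both sides.

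The Pi16+ Dpp4+ cells, which carry markers of a fibroblast progenitor, were high in *Bmp6*, *Bmp7* and *Bmp2*. *Bmp6* was at 26.6 CPM in them against 2.12 CPM in the other *Pdgfra*+ cells in puberty, a 12.6-fold difference (10.5 to 15.3), and at 37.9 against 4.13 CPM in the adult, 9.17-fold (8.38 to 10.1). *Bmp7* was at 38.1 against 3.56 CPM (10.7-fold) and 29.9 against 7.01 CPM (4.27-fold). *Bmp2* was at 40.4 against 14.6 CPM (2.78-fold) and 50.5 against 18.9 CPM (2.67-fold). In the same cells *Gdf10* stood at 0.0977 and 0.293 of its level elsewhere, and *Bmper* at 0.230 and 0.476. At least 2-fold at both stages, 3 members were thus higher and 2 lower, where 4.5% and 6.76% of the 14415 genes tested were. *Bmp5* was at 2.77 against 11.7 CPM in puberty and at 24.5 against 26.9 CPM in the adult, so its ratio was 0.236 (0.210 to 0.266) in puberty and 0.911 (0.866 to 0.957) in the adult. The thinned share of Pi16+ Dpp4+ cells with *Bmp5* was 0.542% in puberty and 5.06% in the adult. In cells with *Pi16* and *Dpp4* and no other subset mark *Bmp5* was at 1.54 and 9.50 CPM, and its ratio to all other *Pdgfra*+ cells was 0.173 and 0.287. With the shared cells moved to the comparison cells, it was thus past 2-fold lower at both stages.

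The Fmo2+ cells were high in *Gdf10*, at 152 against 25.3 CPM in puberty (6.00-fold, 5.79 to 6.22) and 153 against 39.7 CPM in the adult (3.86-fold, 3.75 to 3.98). *Bmp6* was lower in them, at 8.85 against 25.8 CPM and 8.67 against 26.4 CPM. These were the members past 2-fold at both stages, 1 in each direction, where 1.4% of the genes were higher and 0.666% lower. *Chrdl1* was at 421 against 280 CPM in puberty and 228 against 150 CPM in the adult (1.52-fold). Cells with *Fmo2* and no other subset mark held 51.9% of the pubertal and 45.7% of the adult *Gdf10* UMIs of *Pdgfra*+ cells, while they held 8.08% and 12.6% of all UMIs.

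*Gdf10* followed the number of *Fmo2* UMIs in a cell. In puberty it went from 25.3 CPM in cells with none, through 42.6 CPM with 1 and 97.5 CPM with 2 to 4, to 289 CPM with 5 to 9 and 469 CPM (456 to 482) in the 910 cells with 10 or more. In the adult the same steps were 39.7, 66.7, 99.5, 301 and 576 CPM. Each step was larger than the counting intervals at both stages. *Chrdl1* went from 280 to 621 CPM over these classes in puberty, and in the adult from 150 CPM through 120 and 164 CPM to 414 and 744 CPM (725 to 763). In that last class *Chrdl1* was higher in the adult than in puberty, against its direction in all *Pdgfra*+ cells. *Bmper* was at 78.2 and 196 CPM in cells without *Fmo2* and at 20.1 and 63.2 CPM in cells with 10 or more UMIs.

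The Thbs4+ cells were high in *Bmp5* and *Bmp4*. *Bmp5* was at 80.5 CPM (73.7 to 87.8) against 2.74 CPM in the other *Pdgfra*+ cells in puberty, 29.3-fold (26.1 to 33.0), and at 138 CPM (134 to 143) against 12.1 CPM in the adult, 11.4-fold (10.9 to 12.0). *Bmp4* was at 70.7 against 17.9 CPM and 67.5 against 17.2 CPM, 3.96-fold (3.58 to 4.36) and 3.93-fold (3.71 to 4.16). The same cells were low in *Gdf10* (0.365 and 0.253 of the level elsewhere), *Fst* (0.434 and 0.467) and *Chrdl1* (0.306 and 0.287). With 2 members higher and 3 lower past 2-fold at both stages, the background was 2.25% and 2.96%. *Bmp4* and *Bmp5* were the members high in this subset, and their promoter windows differ in the GC box. No link between window and level was tested.

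Across Thbs4 classes *Bmp5* went from 2.74 CPM in pubertal cells with no *Thbs4* UMI to 125 CPM (99.5 to 156) with 5 to 9 and 113 CPM (101 to 126) with 10 or more. In the adult it went from 12.1 CPM to 130 and 211 CPM (202 to 219). The adult level of *Bmp5* in cells without a *Thbs4* UMI was thus above the pubertal one as well. *Bmp4* went from 17.9 to 116 CPM in puberty and from 17.2 to 104 CPM in the adult, and the intervals of the libraries overlapped in every class. *Fst* went down along the same classes, from 486 to 136 CPM and from 287 to 86.6 CPM.

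The cells with 2 or more *Fabp4* UMIs, which carry markers of fat cell precursors, were high in *Bmper* and low in *Bmp4*, *Bmp6*, *Bmp7* and *Chrdl1*. *Bmper* was at 270 against 50.04 CPM in puberty (5.39-fold, 5.23 to 5.56) and 388 against 150 CPM in the adult (2.58-fold, 2.53 to 2.63). *Bmp4* (0.237 and 0.209 of the level elsewhere), *Bmp6* (0.292 and 0.259), *Bmp7* (0.187 and 0.137) and *Chrdl1* (0.412 and 0.244) were lower. The background for 1 member higher and 4 lower was 2.33% and 3.75%. *Gdf10* was 1.74-fold and 1.58-fold higher, and *Fst* 1.28-fold and 1.47-fold. With rising *Fabp4* UMIs *Bmper* went from 46.6 to 358 CPM in puberty and from 142 to 419 CPM in the adult, and *Chrdl1* went down from 343 to 77.5 CPM and from 206 to 28.2 CPM. Smooth muscle and pericyte markers also moved with this subset. All 7 were detected in it, at a summed 688 and 258 CPM against 93.1 and 55.6 CPM in all *Pdgfra*+ cells, and 14.2% and 5.25% of its cells held *Myh11* or *Rgs5*. Without such cells the same 5 members stayed past 2-fold, and *Bmp2* joined them on the lower side.

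The Crabp1+ cells, 289 in puberty and 2672 in the adult, had no member at least 2-fold higher at both stages, where 4.25% of genes were. They were low in *Chrdl1*, at 64.9 against 325 CPM in puberty (0.200) and 24.6 against 198 CPM in the adult (0.124), and in *Fst*, at 184 against 484 CPM (0.381) and 94.7 against 297 CPM (0.319). *Bmp5* and *Bmp6* made up the 4 lower members, where 7.36% of genes were. Over all Crabp1+ cells *Bmp7* was close to the other cells, at 35.6 against 29.98 CPM and 18.7 against 18.1 CPM. *Bmper* was also close, at 1.03 and 1.07 of the level elsewhere. In the 39 pubertal and 227 adult cells with 10 or more *Crabp1* UMIs, *Bmp7* was at 76.8 and 34.9 CPM. *Bmper* was at 22.7 and 114 CPM there, against 73.7 and 185 CPM in cells with none. With 2 to 4 UMIs *Bmp7* was at 20.5 and 17.4 CPM and *Bmper* at 64.2 and 214 CPM, so neither course was steady. After thinning, 46.2% of the pubertal and 47.1% of the adult Crabp1+ cells held no UMI of any member, against 12.0% and 23.6% of all *Pdgfra*+ cells.

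**Figure D3:**
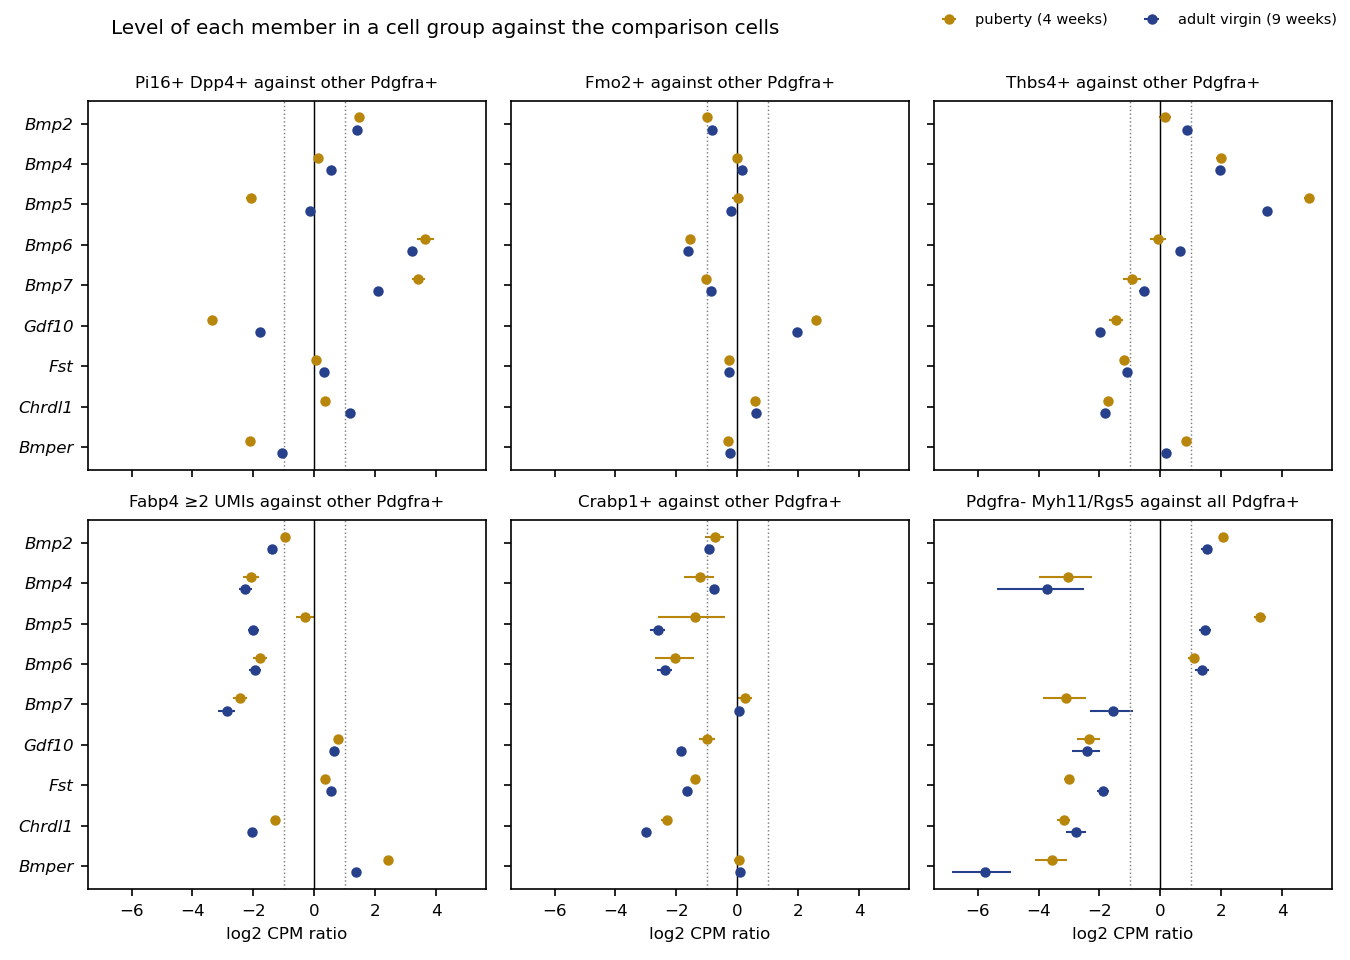
Log2 CPM ratio of 9 members in each marker subset against the other *Pdgfra*+ cells of the same library, and in the *Pdgfra*-negative *Myh11* or *Rgs5* cells against all *Pdgfra*+ cells, with pubertal points in gold, adult points in blue, bars for 95% intervals of counting error and dotted lines at 2-fold. In the Pi16+ Dpp4+ panel *Bmp6*, *Bmp7* and *Bmp2* lie beyond the upper dotted line at both stages, and *Bmp5* lies far below the lower one in puberty (ratio 0.236) and near 0 in the adult (ratio 0.911).

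**Figure D4:**
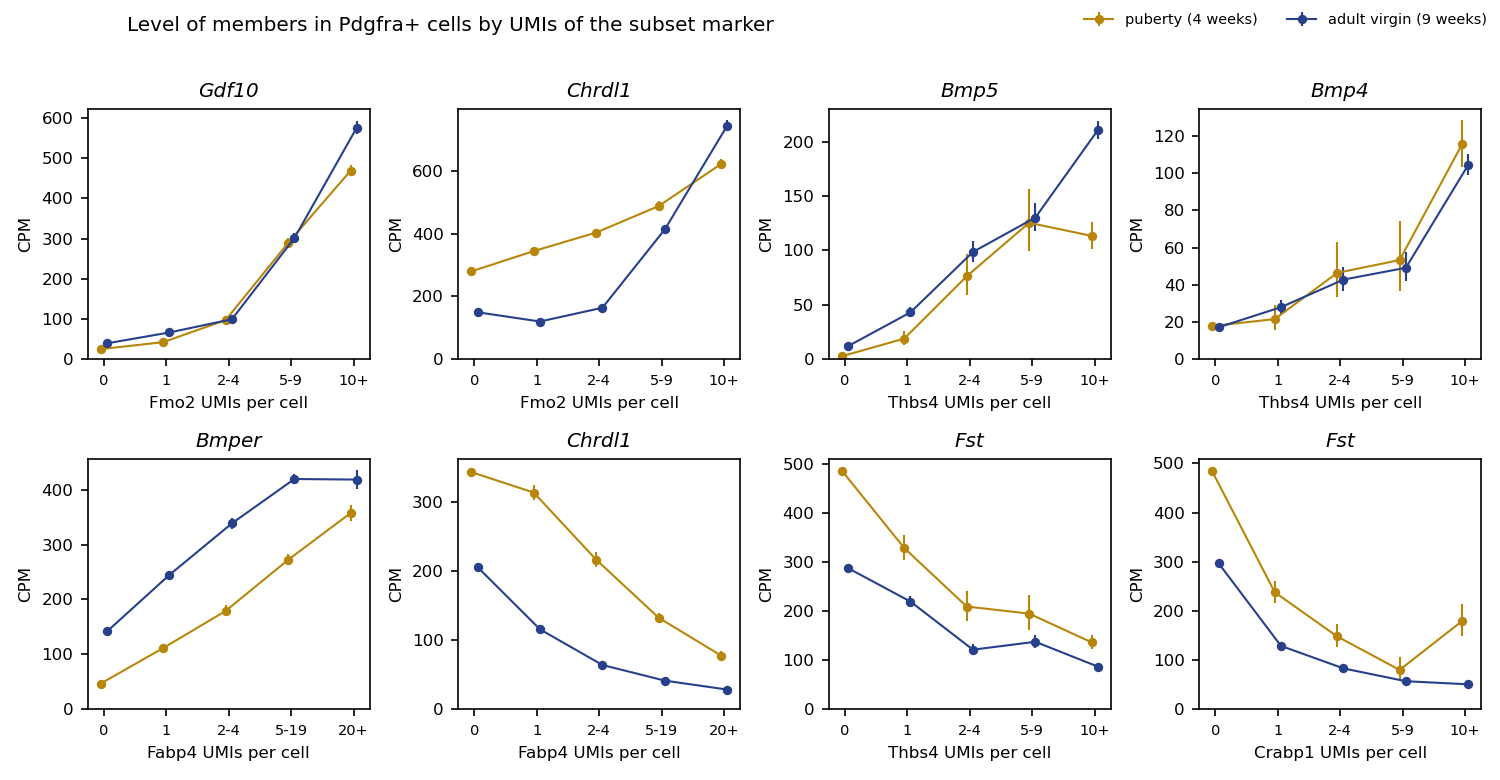
CPM of *Gdf10* and *Chrdl1* by *Fmo2* UMIs per cell, of *Bmp5*, *Bmp4* and *Fst* by *Thbs4* UMIs, of *Bmper* and *Chrdl1* by *Fabp4* UMIs and of *Fst* by *Crabp1* UMIs in *Pdgfra*+ cells, with pubertal points in gold, adult points in blue and bars for 95% Poisson intervals. *Gdf10* reaches 469 and 576 CPM in the highest *Fmo2* class, and *Chrdl1* falls to 77.5 and 28.2 CPM in the highest *Fabp4* class.

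The *Pdgfra*-negative *Myh11* or *Rgs5* cells were high in *Bmp2*, *Bmp5* and *Bmp6* and low in every other member tested. *Bmp2* was at 144 CPM (134 to 155) in puberty and 98.8 CPM (87.8 to 111) in the adult, 4.19-fold and 2.88-fold above all *Pdgfra*+ cells. *Bmp5* was at 46.7 CPM (40.9 to 53.0) and 70.9 CPM (61.6 to 81.2), 9.65-fold and 2.76-fold above. *Bmp6* was at 44.7 and 53.2 CPM, 2.13-fold and 2.58-fold above. The background was 11.9% of genes higher and 15.6% lower past 2-fold at both stages, against 3 and 6 of the 9 members. *Bmp4* was at 2.35 and 1.70 CPM and *Bmper* at 6.27 and 3.41 CPM, the lowest levels of each among these cells, all *Pdgfra*+ cells, the 5 subsets and the *Pdgfra*+ cells of none of them. Between the stages *Bmp2* was lower in the adult (ratio 0.685, 0.596 to 0.786) and *Bmp5* higher (1.52, 1.25 to 1.84). The markers of the group differed as well, with *Rgs5* at 396 and 1426 CPM and *Myh11* at 7106 and 6424 CPM. Their part in the ratios was not tested. Other markers were present in these cells. The 5 epithelial markers were all detected and summed to 34.9 CPM in puberty and 610 CPM in the adult, and 68 and 29 of the cells held 5 or more UMIs of the fibroblast gene *Dcn*. Of 5 skeletal muscle markers (*Des*, *Myf5*, *Myod1*, *Pax7* and *Acta1*) 4 were detected, at a summed 373 and 440 CPM. In *Pdgfra*+ cells the sum was 2.46 and 2.83 CPM. The sum was not split by marker, so it does not identify skeletal muscle cells. The part of these markers in the result was not tested. Without those *Dcn* cells and without cells holding an epithelial marker, 708 and 410 cells remained, in which *Bmp2* was at 162 and 118 CPM, *Bmp5* at 53.2 and 84.4 CPM and *Bmp6* at 48.0 and 62.7 CPM. *Fst* went down to 16.4 and 30.3 CPM and *Gdf10* to 1.12 and 3.28 CPM, so most of the UMIs of these genes in the group came with the cells left out.

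The members were also read together in single *Pdgfra*+ cells, thinned to 3000 UMIs. A ratio of observed cells with both genes over the product of the shares is above 1 where genes occur together more often than independent shares would give. It was highest for *Bmp4* with *Bmp5*, at 3.47 in puberty (33 cells) and 2.82 in the adult (168 cells). *Bmp6* with *Bmp7* gave 1.68 and 2.44, and *Bmp2* with *Bmp6* 1.69 and 1.94. It was low for *Gdf10* with *Bmp6* (0.228 and 0.338) and with *Bmp7* (0.242 and 0.266), for *Bmp5* with *Bmp7* (0.254 and 0.243, from 4 and 12 cells) and for *Bmp7* with *Bmper* (0.319 and 0.315). *Chrdl1* with *Bmper* gave 0.701 and 0.511, and *Gdf10* with *Chrdl1* 1.13 and 1.66. Without thinning *Bmp4* with *Bmp5* gave 2.23 and 2.42, *Gdf10* with *Bmp6* 0.447 and 0.561 and *Chrdl1* with *Bmper* 0.848 and 0.717. *Bmp2* with *Bmp6* gave 1.66 and 2.05. *Gdf10* with *Chrdl1* then gave 0.980 in puberty, on the other side of 1, and 1.25 in the adult. All these values carry no test, and the cells of a stage share a library.

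At least 1 of the 6 ligands was found in 34.4% of the thinned pubertal and 34.9% of the thinned adult *Pdgfra*+ cells. At least 1 of the 4 antagonists was found in 80.8% and 66.3%. The share with a ligand differed little between the libraries, while the share with an antagonist was lower in the adult. A ligand without any antagonist was found in 7.19% and 10.1% of the cells. That share was highest among the subsets in the Thbs4+ cells, at 20.4% and 24.4%, and lowest in the *Fabp4* cells, at 3.73% and 5.46%.

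**Figure D5:**
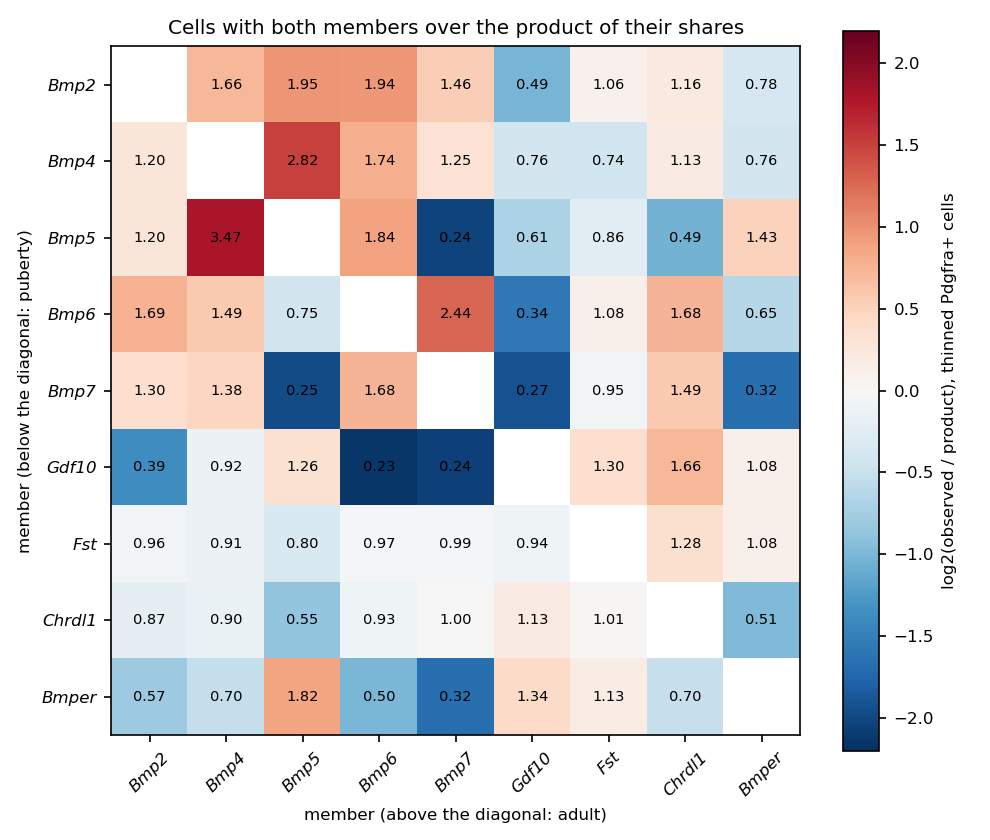
Number of thinned *Pdgfra*+ cells with both members over the number that the product of their shares gives, below the diagonal for puberty and above it for the adult, coloured by its log2. The *Bmp4* and *Bmp5* pair is highest at both stages (3.47 and 2.82), and the pairs of *Gdf10* with *Bmp6* and *Bmp7* are low at both (0.228 to 0.338).

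The rest of the pathway was read from lists of known genes in all *Pdgfra*+ cells, with calls at 1.5-fold in the adult over puberty. Of 16 other ligands 8 were tested, 2 were higher and 3 lower, and the shares over all genes for this and the following lists are the 19.5% higher and 8.92% lower given for the members. *Inhbb*, an activin subunit, was at 3.65 and 14.9 CPM (4.09-fold), *Bmp8a* at 56.4 and 17.2 CPM (0.306) and *Bmp3* at 31.3 and 15.7 CPM (0.501). The other two, *Inhba* (1.93 and 4.81 CPM) and *Gdf15* (3.45 and 1.87 CPM), were below 5 CPM. Like the further genes named here below 5 CPM, they were named after their values were seen. By subset, *Inhbb* was at 18.2 and 55.5 CPM in Thbs4+ cells, and *Bmp8a* at 71.5 and 33.7 CPM in Pi16+ Dpp4+ cells. Of 15 other antagonists 11 were tested, 1 was higher and 3 lower. *Fstl3*, a relative of follistatin, was at 4.77 and 10.9 CPM (2.28-fold), *Crim1* at 138 and 78.5 CPM (0.569) and *Fstl1* at 2728 and 1703 CPM (0.624). The remaining lower gene was *Nog* (noggin), at 1.61 and 1.01 CPM.

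Of 11 receptor and co-receptor genes 10 were tested, 3 were higher and 1 lower. The co-receptors *Rgma*, at 12.5 and 38.4 CPM (3.06-fold), and *Rgmb*, at 42.0 and 66.7 CPM (1.59-fold), were among the higher, with *Acvr2b* (1.80 and 3.38 CPM), and *Bmpr1b* was the lower one (2.98 and 1.09 CPM). None of the 4 SMAD transducers passed 1.5-fold. Of 9 target genes 8 were tested, 2 were higher and 1 lower, with *Msx1* at 16.3 and 32.4 CPM (1.99-fold), *Id1* at 25.7 and 46.5 CPM (1.81-fold) and the inhibitory *Smad7* at 91.8 and 44.6 CPM (0.486). Of 3 listed proteases (*Bmp1*, *Tll1* and *Tll2*), *Tll2* was past 1.5-fold, at 1.001 and 1.66 CPM.

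Likeness of pattern was taken as Pearson's r of log2(CPM + 5) over 14 groups (the 5 subsets without shared cells, the remaining *Pdgfra*+ cells and the *Myh11* or *Rgs5* cells at each stage), among 8486 genes that reached 20 CPM in 1 of them. The 7 groups of a stage share a library. The genes named are the 3 of highest r among all these genes for each member, and no background of r was computed. *Bmp2* and *Bmp6* were nearest to each other (0.943), followed by *Rap1a* (0.912) and *Utrn* (0.897) for *Bmp2* and by *Utrn* (0.922) and *Ppp1r9a* (0.902) for *Bmp6*. The genes nearest to *Bmp4* were *Itgbl1* (0.929), *Qki* (0.926) and *Rab23* (0.901), and those nearest to *Bmp5* were *Sorl1* (0.927), *Nek7* (0.920) and *1700025G04Rik* (0.899). *Bmp7* was followed most closely by *Rin3* (0.939), *Inpp1* (0.934) and *Stambpl1* (0.911), and *Gdf10* by *Vill* (0.963), *Mlana* (0.939) and *Pltp* (0.938). Among the antagonists, *Fst* had *Manba* (0.955), *Cxcl10* (0.907) and *Jak2* (0.904), *Chrdl1* had *Gm36535* (0.945), *Cadm3* (0.912) and *Ildr2* (0.906), and *Bmper* had *Ctsb* (0.954), *Slc9a9* (0.949) and *Col5a3* (0.946).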

How the data were processed

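Stromal cells of 1 pubertal and 1 adult library were captured with the 10x Genomics GEM-X Single Cell 3′ v4 kit per the labels. Cell Ranger 8.0.1 and mm10 are named in the submitters' processing notes. The kit and software versions in the published methods differ from these, and the labels were followed. The authors deposited raw UMI counts per gene and barcode in filtered matrices, with 21688 barcodes and 255274670 UMIs for puberty and 23183 barcodes and 259549498 UMIs for the adult.

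Cells with at least 500 genes and at most 10% mitochondrial UMIs were kept, and doublets were removed only in an alternative (the highest Scrublet scores in scanpy 1.11.5, 1935 and 2205 barcodes). UMIs were summed per group of cells in Python 3.11.15. Sums have Poisson intervals, shares exact Clopper-Pearson intervals and ratios conditional binomial intervals, at a level of 95%. No value of these intervals covers the spread between mice. A gene was tested with at least 100 UMIs over the cells compared (over both libraries between stages, and in each library between groups of cells), and called past 1.5-fold between stages or past 2-fold at both stages between groups of cells. No ratio of a member is printed where either sum was 3 UMIs or fewer. Calls had no such limit. Shares were compared after random thinning to 3000 UMIs per cell. Other cell types had at least 3 of 5 markers and no *Pdgfra*. TMM factors came from edgeR 4.0.16. The ratio code was tested on simulated counts.

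All 10 members are named, and a pathway gene was named when past 1.5-fold with at least 5 CPM in 1 library (at most 4 a list). Members and lists were chosen with earlier results of these data known.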

Additional observations from a re-analysis of the deposited data

Results flagged for a closer look

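Among the 5 marker subsets and the *Myh11* or *Rgs5* cells, the adult over puberty ratio of 3 members went opposite ways in different groups, with both counting intervals clear of 1 and 1 of the ratios past 1.5-fold. *Bmp2* stood at 38.4 and 58.1 CPM in Thbs4+ cells, a ratio of 1.52 (1.32 to 1.74), and at 144 and 98.8 CPM in the *Myh11* or *Rgs5* cells, a ratio of 0.685 (0.596 to 0.786). *Gdf10* stood at 19.6 and 34.4 CPM in Pi16+ Dpp4+ cells, a ratio of 1.75 (1.68 to 1.84), and at 31.1 and 23.8 CPM in Crabp1+ cells, a ratio of 0.765 (0.635 to 0.927). *Fst* stood at 59.6 and 72.9 CPM in the *Myh11* or *Rgs5* cells, a ratio of 1.22 (1.02 to 1.46), and at 184 and 94.7 CPM in Crabp1+ cells, a ratio of 0.514 (0.475 to 0.557). The same held for 4 members among the subsets without shared cells. *Bmp2* had a ratio of 1.74 (1.46 to 2.09) in cells with *Fmo2* alone and 0.513 (0.358 to 0.752) in cells with *Crabp1* alone. *Bmp4* had 2.97 (1.24 to 9.32, from 5 pubertal UMIs) with *Crabp1* alone and 0.825 (0.702 to 0.974) with *Thbs4* alone. *Bmp7* had 6.04 (3.61 to 10.8) with *Fmo2* alone and 0.411 (0.310 to 0.553) with *Crabp1* alone. *Gdf10* had 1.88 (1.76 to 2.01) with *Pi16* and *Dpp4* alone and 0.619 (0.435 to 0.901) with *Crabp1* alone. Most *Fst* UMIs of the *Myh11* or *Rgs5* cells came with cells that held 5 or more *Dcn* UMIs or an epithelial marker. With 1 library per stage the differences between groups were not tested.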

How the results depend on the processing

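The count of 5 members past 1.5-fold in *Pdgfra*+ cells was 2 at a fold of 2, both higher in the adult, and 5 under each of the other 13 alternatives (cell filters, doublet removal, stricter *Pdgfra* or no *Myh11* or *Rgs5*, TMM, thinning, mean of cells, equal weight of subsets without shared cells, no minimum count, and, both chosen after seeing the data, removal of barcodes of both libraries and of cells in 2 or more subsets). Under equal weight of subsets without shared cells it was made of 3 higher and 2 lower members, as *Bmp6* reached 1.61 and *Bmp7* 0.721. The ratio of *Bmp5* ran from 1.85 to 5.96, of *Bmper* from 1.67 to 2.57, of *Fst* from 0.507 to 0.606 and of *Chrdl1* from 0.491 to 0.624. The ratio of thinned shares was on the same side of 1 at 1500 UMIs for the 9 tested members. For cells with 2 or more UMIs of a gene it was 1.12 for *Bmp2* and 1.20 for *Bmp6*, against 0.912 and 0.870 for 1 or more, and without thinning the share with *Bmp4* was 15.3% in both libraries, against a ratio of 1.19 after it. Without thinning, 23 co-detection ratios of a ligand with an antagonist left the counting interval of the thinned value, and 13 stayed within it. The causes were not tested. The 21 calls in the marker subsets were met under each alternative, which gave 22 to 29. The alternative without shared cells moved those cells to the comparison cells. The calls for *Bmp5* and *Bmp6* in Crabp1+ cells rested on 3 UMIs or fewer at a stage with stricter markers and without shared cells. The call for *Bmp5* did so after doublet removal as well, so these calls could not be judged there. The 9 calls in the *Myh11* or *Rgs5* cells were met likewise, but could not be judged for *Bmp4* at 3 or more *Myh11* or *Rgs5* UMIs, nor for *Bmp4*, *Bmp7* and *Bmper* without *Dcn* and epithelial marker cells. Removing *Dcn* and epithelial marker cells, and *Myh11* or *Rgs5* cells from the subsets, was chosen after seeing the data. No paired analysis was possible because the stages share a single replicate number, and leaving out a replicate would empty a stage. Depth limits *Grem1*, and *Bmp5* in pubertal Crabp1+ cells (8 UMIs).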

Other observations

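Members were also found in small groups of *Pdgfra*-negative cells with at least 3 of 5 markers of another type. *Bmp6* was found in 21 of 49 adult endothelial cells (42.9%, 28.8 to 57.8, exact Clopper-Pearson), at 329 CPM, and in 2 of 12 pubertal ones, at 217 CPM. Of the skeletal muscle cells, 9 of 33 in puberty (27.3%) and 28 of 85 in the adult (32.9%) held *Bmp4*, at 63.1 and 91.3 CPM. Of the Schwann cells, 12 of 59 in puberty (20.3%) and 22 of 49 in the adult (44.9%) held *Chrdl1*, at 72.1 and 164 CPM. *Fst* was found in 12 of the same pubertal Schwann cells and 1 of the adult ones. Median depths of these groups were 2523 to 5708 UMIs, and the intervals cover counting error only.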
